A study of Setaria viridis with 22 samples.

Results

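Of 35214 primary transcripts of green millet (*Setaria viridis*) measured in 22 inflorescence libraries, 10 genes are described here across all of them. They were picked on measured values, because the difference between the mutant *spp1* and its wild type A10.1 grew with stage. In a test of any change of that difference between stages, they hold ranks 1 and 3 to 11. It covered 17896 genes averaging 1 FPKM or more (FPKM counts sequenced fragments per unit of transcript length and of library size). The stage course and the genotype differences of the 10 genes are therefore descriptions of what chose them, no p-value of theirs is printed, and counts of calls among them are given only beside the share of all genes. The series sampled whole inflorescences of A10.1 and of *spp1*, a mutant isolated from and carried in the A10.1 background, from chamber-grown plants. Dissection was at 10, 12 and 14 days after sowing (DAS), with 4 libraries of each genotype at 10 and 14 DAS and 3 at 12 DAS, where no replicate 3 was analysed. Each library came from a pool of inflorescences, so that spread between libraries is spread between pools. The labels name no transgene or treatment and give the same growth and sampling protocol for both genotypes. According to the study the A10.1 reads had also been deposited earlier with another work, and the sources used here do not say that both genotypes were grown or sequenced together. Genotype and growth or sequencing occasion therefore cannot be told apart.

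Over these days the young inflorescence of *Setaria* lays down primary branches and then higher orders of branches, whose tips become either spikelets or sterile bristles. SPP1 belongs to the AUX1 family of auxin importers, membrane proteins that carry the hormone into the cell, and auxin flow marks where new branches and flowers start. Cells tune hormone responses by import, by receptors, by transcription factors, and by conjugating enzymes that take the free hormone out of action. The 10 genes include one annotated product of the last kind, a GH3 enzyme, and an abscisic acid receptor, an ethylene-response factor, an inositol transporter, a translation factor subunit and an RNA-binding protein, and 4 genes with no named function.

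Libraries held between 10434407 and 24255447 mapped first reads, with 86.69 to 93.22% mapped. Replicate 4 of *spp1* at 14 DAS had the fewest reads and the lowest share, and lay apart on the second principal component (-58.23, against -22.43 to 26.39 for the others). Summed FPKM of 10 inflorescence marker genes was 984 to 1255 in A10.1 at 14 DAS and 639 to 712 in *spp1*, without overlap. The markers include homologs of maize *ra2*, *ra3*, *lg1*, *tsh1* and *ba1*. The study reported these as lower in *spp1*, so a lower sum there is partly built into the list. At 12 DAS the sums were 500.2 to 670.2 and 305 to 475, and at 10 DAS they overlapped (150.3 to 217 and 136 to 212). Of these markers, 1 (*ba1*) was listed at 0 in a library, at 10 DAS in *spp1*. The green leaf markers were 17 chlorophyll-binding, photosystem and Rubisco activase genes. Their sum was 1941 to 2507 in A10.1 and 2487 to 4245 in *spp1* at 14 DAS, and none of the 17 was at 0. All 17 come from the genes that the study itself picked on these libraries, so the list is not independent of them. Thus the inflorescence sum was lower and the green leaf sum mostly higher in the mutant at 14 DAS, and their part in the results was not tested. In whole tissue, fewer cells of a type and less RNA per cell cannot be told apart. SPP1 itself (Sevir.5G392400) averaged 27.4 ± 7.43 FPKM in A10.1 against 22.5 ± 5.49 in the mutant at 10 DAS, with overlap (SD, n = 4). At 12 DAS the values were 27.0 ± 2.30 against 18.4 ± 2.79 FPKM (SD, n = 3), with no overlap. They were 32.6 ± 2.61 against 20.8 ± 5.40 FPKM at 14 DAS (SD, n = 4), again with no overlap.

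At 14 DAS all *spp1* values were under all A10.1 values for each of the 10 genes, and the log2(FPKM + 1) differences ran from -0.68 to -1.60. That position was held by 10.2% of the 17645 genes that averaged 1 FPKM or more at 14 DAS. Limma's test called all 10 lower in *spp1* at an adjusted p under 0.05, as it did 1.25% of genes tested, with a median of -1.15 for the 10 and -0.10 over all genes. Since the growing difference chose the genes, these counts say nothing more about them. The change of the difference from 10 to 14 DAS lay between -0.69 and -1.64. The F test took that change and the change from 10 to 12 DAS together. It called 11 genes in all (0.0615%), of which 10 are the genes described. The number of the 10 called was 7 without replicate 4 of *spp1* at 14 DAS. It fell to 2 without replicate 1 of A10.1 at 14 DAS or replicate 1 of *spp1* at 10 DAS, and to 2 after median ratio scaling.

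**Figure D1:**
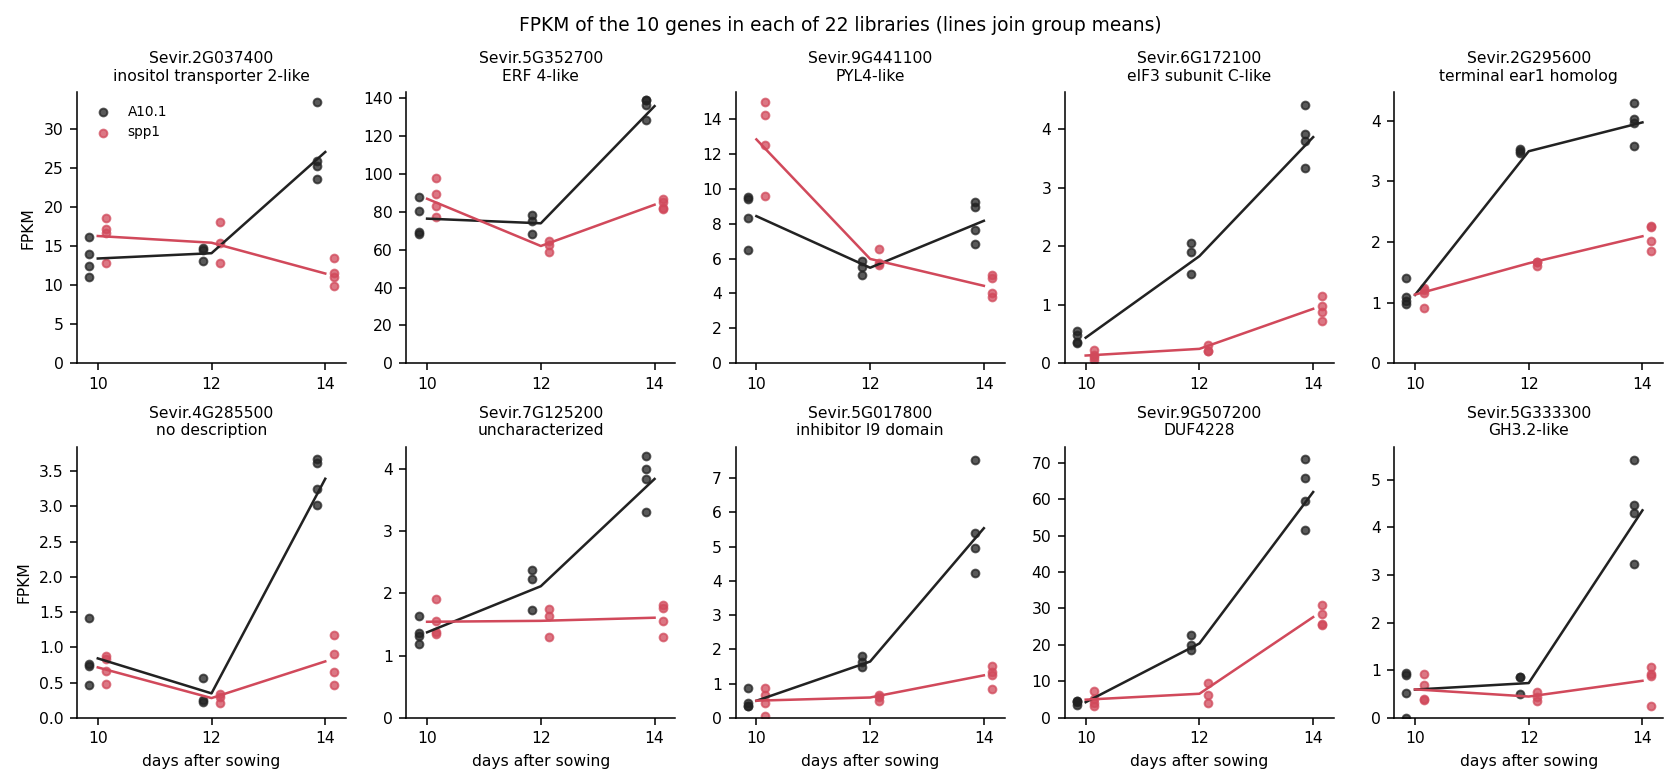
FPKM (vertical axis, a separate scale in each panel, from 0) of the 10 genes against days after sowing, with 1 point for each of the 22 libraries (A10.1 black, *spp1* red) and lines joining the group means. At 14 DAS the red points lie below the black points in all 10 panels, and at 10 DAS they overlap in 8.

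At 10 DAS the genotypes were near each other for most of the genes. Of the 6 that averaged 1 FPKM or more at that stage, limma called 0 lower in *spp1*, against 0.0112% of genes tested, and 0 were lower at an unadjusted p under 0.05. That unadjusted threshold was passed by 746 of all 17937 genes, in either direction. In 0 of these 6 did all *spp1* libraries lie below all A10.1 libraries, a position held by 1.27% of genes. Over all 10, Sevir.6G172100 was lower in every *spp1* library at 10 DAS and Sevir.9G441100 was higher in every one. At 12 DAS 2 of 8 tested were called lower, Sevir.6G172100 and Sevir.9G507200, against 0.198% of genes. In 5 of these 8 the *spp1* libraries lay below those of A10.1, against 5.42% of genes. The call of 2 was not stable to leaving out 1 library, with 0 or 1 called in each of the 6 cases.

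The stage courses come from the same libraries that chose the genes, and nothing is read from their counts. From 10 to 12 DAS 4 of 10 were called higher in A10.1 (Sevir.6G172100, Sevir.2G295600, Sevir.5G017800 and Sevir.9G507200), against 6.84% of genes tested, and 1, Sevir.9G441100, was called lower. From 12 to 14 DAS 8 of 10 were called higher, against 2.44%, the 2 others being Sevir.9G441100 and Sevir.2G295600. Thus 3 of the 4 called higher in the first interval (Sevir.6G172100, Sevir.5G017800 and Sevir.9G507200) were called higher in the second as well, and Sevir.9G441100 in neither. In *spp1* only 6 of the 10 averaged 1 FPKM or more. From 10 to 12 DAS 0 of these were called higher, against 1.12% of genes, and 2 were called lower. At an unadjusted p under 0.05, 1 was higher, a threshold passed by 3587 of all 17902 genes in either direction. From 12 to 14 DAS 2 were called higher, Sevir.5G352700 and Sevir.9G507200, against 0.676%. That count was 1 without any single library among 9 of the 11 of *spp1*.

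Sevir.2G037400 carries the description of an inositol transporter of type 2, in Arabidopsis a proton-coupled carrier that brings inositol across the plasma membrane. In A10.1 it held 14.0, 12.4, 10.99 and 16.2 FPKM at 10 DAS, 14.8, 13.0 and 14.5 at 12 DAS, and 25.9, 33.5, 25.3 and 23.5 at 14 DAS. The *spp1* libraries held 18.6, 12.8, 17.2 and 16.6 at 10 DAS, 15.5, 12.8 and 18.0 at 12 DAS, and 13.5, 9.93, 11.5 and 11.1 at 14 DAS. The genotypes overlapped at the first stages and separated at the last, where the lowest A10.1 library stood well above the highest of *spp1*. Its A10.1 mean rose 1.92-fold from 12 to 14 DAS, while the *spp1* mean at 14 DAS was 0.745 times that at 12 DAS. At 14 DAS the A10.1 mean was 2.35 times that of *spp1*, a log2 difference of -1.16 (SE 0.13). Each SE printed with a difference here and below is limma's, which draws on the spread of other genes too.

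The hormone-related genes come next. Sevir.5G352700, described as an ethylene-responsive transcription factor 4-like protein of the AP2/ERF class, was the most highly expressed of the 10. A10.1 libraries held 68.1, 80.3, 69.3 and 88.1 FPKM at 10 DAS, 74.9, 78.6 and 68.5 at 12 DAS, and 129, 139, 136 and 139 at 14 DAS. In *spp1* the values were 77.5, 89.2, 97.8 and 83.3, then 58.8, 64.6 and 62.6, then 85.2, 81.9, 81.4 and 86.7. The A10.1 mean thus rose 1.84-fold from 12 to 14 DAS, whereas in *spp1* a lower 12 DAS level was followed by a 1.35-fold rise back to about the 10 DAS level. Genotypes already differed at 12 DAS, where all *spp1* libraries were below all of A10.1. The difference at 14 DAS was -0.69 (SE 0.07) on the log2 scale.

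Sevir.9G441100, described as an abscisic acid receptor PYL4-like protein, was no late riser. Receptors of this family bind the hormone and then block phosphatases that otherwise hold the response off. In A10.1 its FPKM was 9.55, 9.4, 6.47 and 8.31 at 10 DAS, 5.50, 5.89 and 5.04 at 12 DAS, and 9.27, 7.61, 8.93 and 6.85 at 14 DAS, so that the last stage only regained the level of the first. In *spp1* it began higher, at 15.0, 14.2, 12.5 and 9.57, and went to 5.76, 5.65 and 6.54 and then to 5.07, 4.01, 4.89 and 3.79. Here the growing difference came from a level in *spp1* that ended at 0.346 of its starting mean. The genotypes changed order, with *spp1* above A10.1 in every library at 10 DAS and below it at 14 DAS (log2 difference -0.75, SE 0.13).

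Sevir.5G333300 is annotated as a GH3.2-like indole-3-acetic acid-amido synthetase and matches OsGH3.2 of rice. Enzymes of this family join auxin to amino acids, and many GH3 genes are themselves switched on by auxin. In A10.1 it was scarce at first, with 0.53, 0.90, 0.94 and a value listed at 0 in replicate 3 at 10 DAS and 0.85, 0.49 and 0.85 at 12 DAS. It then reached 4.46, 5.42, 3.24 and 4.31 FPKM at 14 DAS. The *spp1* libraries stayed low throughout, at 0.69, 0.40, 0.38 and 0.92, then 0.54, 0.36 and 0.44, then 0.93, 1.06, 0.24 and 0.88. Of the 10 genes it had the widest ratio at 14 DAS, with an A10.1 mean 5.61 times that of *spp1* (log2 difference -1.60, SE 0.19). At 12 DAS the libraries of both genotypes still overlapped. Values near 0.5 FPKM rest on few reads, and its log2 difference at 14 DAS was -2.47 with a pseudocount of 0.1.

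Among the RNA-related genes, Sevir.2G295600 is named as a homolog of terminal ear1, which in maize encodes an RNA-binding protein that restrains the initiation of leaves. It rose early in A10.1, from 1.03, 1.10, 1.40 and 0.98 FPKM at 10 DAS to 3.46, 3.53 and 3.50 at 12 DAS, and held 3.97, 4.30, 4.03 and 3.59 at 14 DAS. In *spp1* it went from 1.24, 0.92, 1.21 and 1.16 to 1.61, 1.67 and 1.67 and then to 2.02, 1.86, 2.26 and 2.24. Libraries of a group lay close together, and the genotypes separated without overlap from 12 DAS on. Its difference was of like size at 12 DAS (-0.76, SE 0.12) as at 14 DAS (-0.68, SE 0.10), so that it is not a gene whose gap opens late.

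Sevir.6G172100 is described as subunit C of eukaryotic translation initiation factor 3, part of the scaffold that readies the small ribosomal subunit. Its level was low throughout, and reads shared with another copy of the gene cannot be judged from these values. A10.1 held 0.56, 0.36, 0.35 and 0.48 FPKM at 10 DAS, 2.06, 1.90 and 1.53 at 12 DAS, and 3.91, 4.41, 3.33 and 3.80 at 14 DAS. The *spp1* values were 0.22, 0.10, 0.06 and 0.15, then 0.21, 0.32 and 0.21, then 0.88, 1.15, 0.97 and 0.72. It was the only one of the 10 whose genotypes stayed apart without overlap at all stages, with *spp1* the lower. On a ratio scale its gap did not widen steadily: the A10.1 mean was 3.30 times that of *spp1* at 10 DAS, 7.42 times at 12 DAS and 4.15 times at 14 DAS. Its *spp1* mean was 7.02 times higher at 14 than at 10 DAS, against 8.83 times in A10.1.

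The other 4 genes have no named function. Sevir.9G507200, which holds a domain of unknown function (DUF4228), moved most in A10.1, with a 14.4-fold higher mean at 14 than at 10 DAS. Its A10.1 values were 4.36, 4.50, 3.57 and 4.72 FPKM at 10 DAS, 22.6, 18.7 and 19.9 at 12 DAS, and 51.6, 71.0, 59.4 and 65.8 at 14 DAS. In *spp1* they were 7.3, 3.3, 4.1 and 5.22, then 9.5, 4.04 and 6.27, then 25.4, 25.7, 28.6 and 30.9. The rise was later in *spp1* and not lost: from 12 to 14 DAS the mean rose 4.19-fold in the mutant and 3.04-fold in A10.1. Accordingly the log2 difference was wider at 12 DAS (-1.55, SE 0.24) than at 14 DAS (-1.13, SE 0.12), although the groups did not overlap at either stage.

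Sevir.5G017800 carries a proteinase inhibitor I9 domain, which in plants is best known as the folding aid at the front of subtilisin-like proteases, and its best match in Arabidopsis is such a protease. It held 0.86, 0.34, 0.44 and 0.35 FPKM at 10 DAS in A10.1, 1.81, 1.49 and 1.63 at 12 DAS, and 5.40, 7.54, 4.24 and 4.97 at 14 DAS. In the mutant the libraries read 0.86, 0.42, 0.66 and 0.06, then 0.50, 0.61 and 0.67, then 1.26, 1.52, 1.33 and 0.85. Overlap at 10 DAS gave way to separation at 12 and 14 DAS. The mean at 14 DAS was 11.1 times that at 10 DAS in A10.1 and 2.48 times in *spp1*, and the log2 difference at 14 DAS was -1.53 (SE 0.17).

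Sevir.7G125200, whose rice match is labelled a ligand-binding steroid nuclear receptor, had the flattest course in the mutant. Its A10.1 libraries held 1.64, 1.36, 1.18 and 1.31 FPKM at 10 DAS, 2.38, 1.73 and 2.23 at 12 DAS, and 4.0, 3.84, 4.2 and 3.3 at 14 DAS. Those of *spp1* held 1.90, 1.55, 1.37 and 1.35, then 1.74, 1.3 and 1.63, then 1.55, 1.3, 1.81 and 1.77. The *spp1* means at the 3 stages were 1.54, 1.56 and 1.61 FPKM, while that of A10.1 was 2.79 times higher at 14 than at 10 DAS. The genotypes overlapped at 12 DAS by the lowest A10.1 library only, and the difference at 14 DAS was -0.89 (SE 0.12).

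Sevir.4G285500 has no description in the annotation used. Its A10.1 level was lowest at the middle stage, with 1.41, 0.73, 0.76 and 0.47 FPKM at 10 DAS, 0.25, 0.23 and 0.56 at 12 DAS, and 3.02, 3.67, 3.25 and 3.62 at 14 DAS. The *spp1* libraries were also lowest then, going from 0.67, 0.84, 0.87 and 0.48 to 0.29, 0.21 and 0.34, and then reached 1.17, 0.91, 0.65 and 0.47. The genotypes overlapped before 14 DAS, and at 14 DAS the A10.1 mean was 4.24 times that of *spp1* (log2 difference -1.30, SE 0.14).

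**Figure D2:**
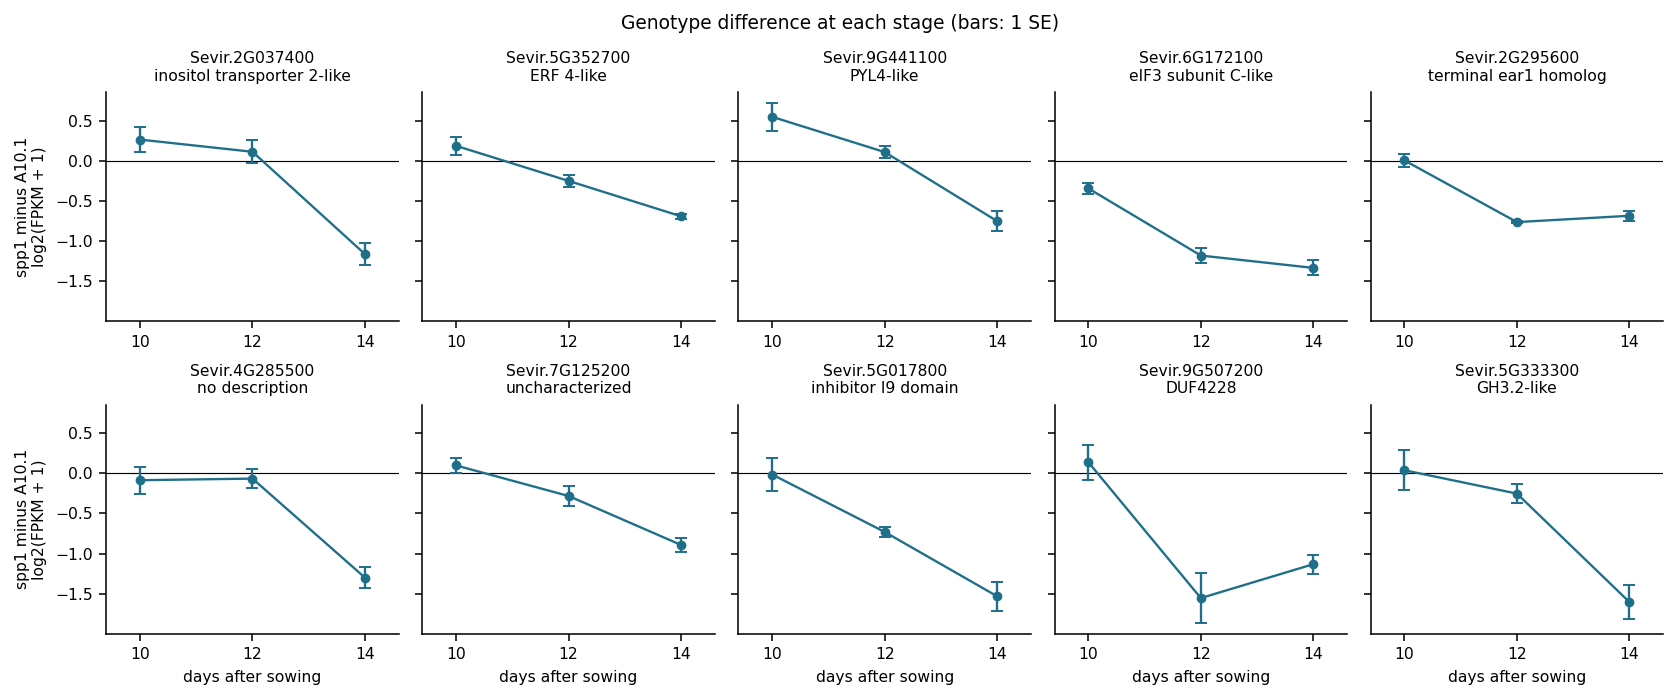
Difference between group means, *spp1* minus A10.1 in log2(FPKM + 1), at each stage (horizontal axis, days after sowing) for the 10 genes. Bars are 1 SE from the spread between libraries of that gene alone (n = 4, 3 and 4 for each genotype at 10, 12 and 14 DAS). They differ from limma's SE printed in the text. Sevir.2G037400, Sevir.4G285500 and Sevir.5G333300 drop mainly after 12 DAS, whereas Sevir.2G295600, Sevir.6G172100 and Sevir.9G507200 are already near their lowest point at 12 DAS.

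The *spp1* libraries at 14 DAS were also set beside those of A10.1 at the earlier stages. Against A10.1 at 12 DAS, 8 of the 10 averaged 1 FPKM or more, and the groups overlapped for 4 of these, as for 90.2% of genes. The mutant lay above for 2 (Sevir.5G352700 and Sevir.9G507200), against 4.63% of genes, and below for 2 (Sevir.6G172100 and Sevir.2G295600), against 5.13%. Against A10.1 at 10 DAS, 6 averaged that much, of which 3 overlapped (81.8% of genes), 2 lay above (8.4%) and 1, Sevir.9G441100, lay below (9.8%). These positions rest on libraries of both genotypes that also chose the genes, and are given without a test.

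How much of the wild-type change the mutant kept differed from gene to gene. From 10 to 14 DAS 9 of the 10 were higher by at least 0.83 in log2(FPKM + 1) in A10.1, with a median of 1.27, and the same 9 changed by a median of 0.14 in *spp1*. All 9 sit among 725 genes that averaged 1 FPKM or more and changed at least that much in A10.1. Over those 725 the medians were 1.18 in A10.1 and 0.87 in *spp1*, so the mutant kept a median of 70.1% of the change, with quartiles of 53.7 and 87.4%. Less than 50% was kept by 22.1% of the 725. These genes were chosen by their change in A10.1 alone, so a smaller change in *spp1* is partly built into the list. On this scale 8 of the 9 kept less than 50%, with Sevir.9G507200 (64.4%) the exception, as their selection on this contrast sets them to do. Sevir.6G172100 and Sevir.2G295600 each kept about 44% (43.6 and 43.8%), Sevir.5G017800 28.4%, and Sevir.5G333300, Sevir.4G285500 and Sevir.7G125200 kept 7.91, 4.74 and 3.61%. The share of Sevir.6G172100 depends on the 1 added to FPKM, as its *spp1* mean at 10 DAS was 0.13 FPKM. As a ratio of means it rose 7.02-fold in *spp1* and 8.83-fold in A10.1, so most of its rise was kept on that scale. In Sevir.2G037400 and Sevir.5G352700 the *spp1* change was -0.46 and -0.05. Leaving out replicate 4 of *spp1* at 14 DAS moved none of the 14 DAS ratios by more than 1.5 times. The share of the change kept was less steady for the genes that kept least: without that library it was 12.0% for Sevir.4G285500 and 0.64% for Sevir.7G125200. The largest shifts of the ratios were 4.24 to 3.73 for Sevir.4G285500 and 4.47 to 4.04 for Sevir.5G017800.

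**Figure D3:**
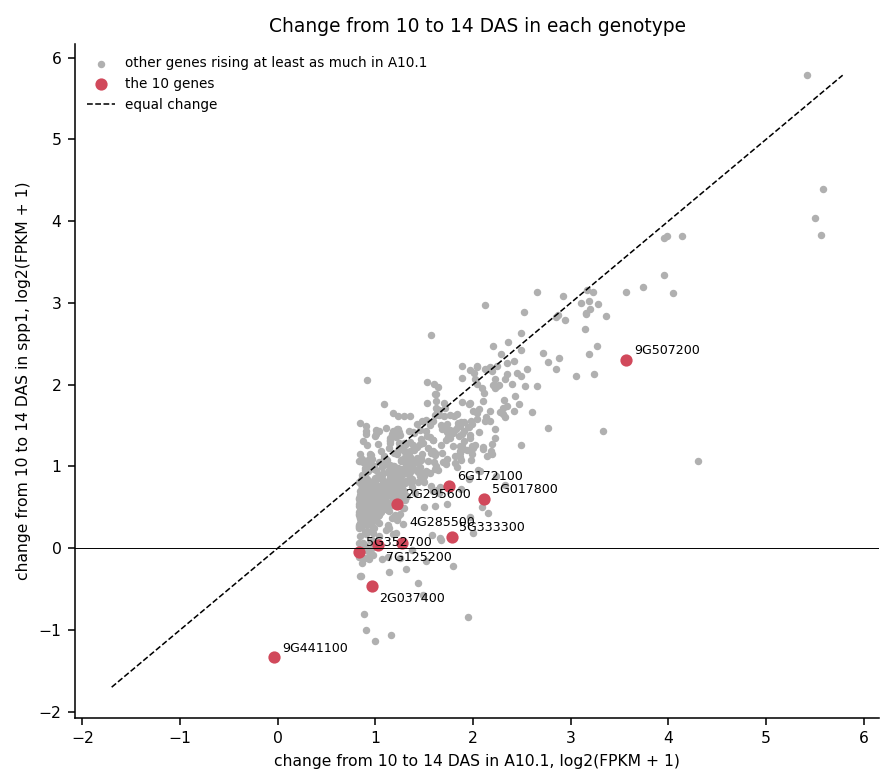
Change in mean log2(FPKM + 1) from 10 to 14 DAS in A10.1 (horizontal) and in *spp1* (vertical), for the 10 genes (red, labelled without the prefix Sevir.) and for the other genes with a change of at least 0.83 in A10.1 (grey). The dashed line marks equal change. The red points lie below the line, and Sevir.9G441100 stands alone at the lower left with -0.04 in A10.1 and -1.33 in *spp1*.

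Correlations over the 22 libraries partly restate the pattern that chose the genes. Pearson's r between pairs, over 22 libraries that share stage and genotype, had a median of 0.75 over 45 pairs. The closest pair was Sevir.6G172100 and Sevir.5G017800 (0.951), and 4 pairs were below 0, all with Sevir.9G441100. Without that gene the lowest of 36 pairs was 0.474. Within the 11 A10.1 libraries the median was 0.849, and within the 11 of *spp1* it was 0.148 with 17 pairs below 0. Without Sevir.9G441100 the 36 pairs in *spp1* had a median of 0.152 and a lowest value of -0.777. The mean of the 10 standardised profiles correlated with single members from 0.781 to 0.955, except with Sevir.9G441100 (0.11).

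Outside the 10, the genes most like their mean profile over 22 libraries included several low or moderate transcripts. The closest were Sevir.5G109700 (r = 0.919), a RING-type ubiquitin ligase described as Arkadia-like, and Sevir.2G450400 (0.918), a late embryogenesis abundant protein. Next were Sevir.1G353600 (0.916), a vacuolar amino acid transporter, and Sevir.6G243900 (0.916), an LRP1-type zinc finger protein of the family that in Arabidopsis includes SHI. The remaining 6 were Sevir.5G145900 (0.897), with an RNA recognition motif, Sevir.6G160800 (0.891), Sevir.7G165800 (0.89), an EF-hand protein, Sevir.9G087400 (0.887), Sevir.1G070300 (0.886) and Sevir.2G222600 (0.88), a C2H2 zinc finger protein. Sevir.2G450400 stands out in level: it averaged 0.14 FPKM at 10 DAS in each genotype, and at 14 DAS 4.73 ± 0.84 in A10.1 against 1.08 ± 0.83 in the mutant (SD, n = 4). Sevir.6G243900 averaged 2.22 ± 0.32 and 0.89 ± 0.16 at 14 DAS. Among 17886 other genes averaging 1 FPKM or more, 4 passed an r of 0.9 over 22 libraries, and 439 did within the A10.1 libraries alone. Of the 10 named, 8 stayed among the nearest 10 without replicate 4 of *spp1* at 14 DAS, 3 did within A10.1 alone and 0 within *spp1* alone.

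**Figure D4:**
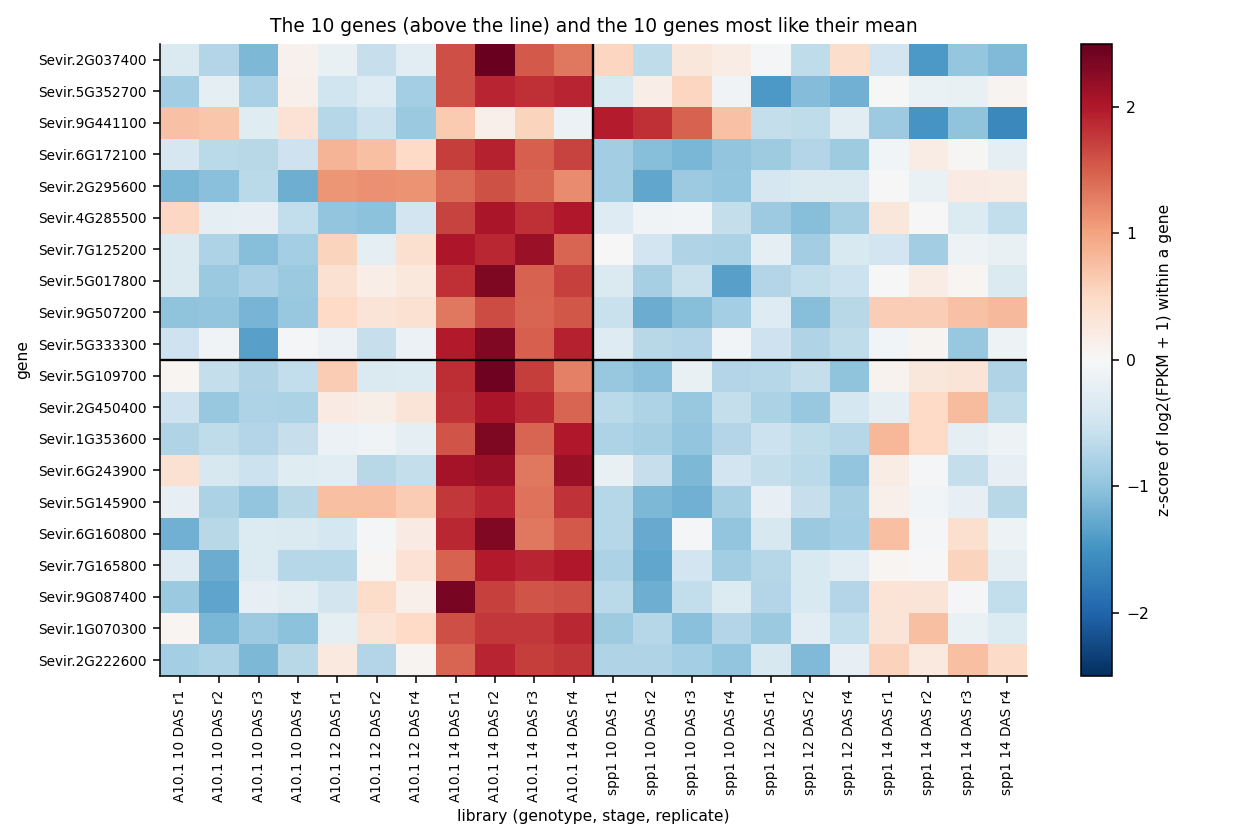
Standardised log2(FPKM + 1), as a z-score within each gene, of the 10 genes (above the horizontal line) and of the 10 genes most like their mean (below it), in 22 libraries ordered by genotype, stage and replicate (r). The vertical line separates A10.1 (left) from *spp1* (right). The A10.1 columns of 14 DAS are the darkest red in most rows, and Sevir.9G441100 departs from the other rows with its highest values in *spp1* at 10 DAS.

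Around the limit of the selection, the last gene inside was Sevir.5G333300 (rank 11, contrast -1.64). The 1 gene inside that limit and not among the 10 was Sevir.2G437800 (rank 2, contrast -3.24), the homolog of maize *branched silkless1*, a transcription factor of the ERF class that sets spikelet meristem identity. It was listed at 0 in all A10.1 libraries at 10 DAS and held 13.5 to 27.7 FPKM at 14 DAS, against 0.84 to 6.08 in *spp1*. Just outside, in the same direction, stood Sevir.5G145900 (rank 13, -1.10), Sevir.1G246600 (rank 15, -2.06), Sevir.2G407500 (rank 18, -1.74), Sevir.1G353600 (rank 19, -1.90) and Sevir.6G255500 (rank 20, -1.03). Sevir.2G407500 is the homolog of maize *ramosa3*, a trehalose-phosphate phosphatase that limits branching, and at 14 DAS averaged 146 ± 26.7 FPKM in A10.1 against 42.1 ± 1.497 in the mutant. Sevir.1G246600 averaged 7.07 ± 2.10 and 0.73 ± 0.19 (SD, n = 4). Contrasts of these genes exceed those of several of the 10.

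Relatives of the 10 were counted in the annotation deposited with the study, which covers 2952 genes that the study itself picked on these libraries and so is not independent of them. Of the 3 other GH3 genes, 1 was called lower in *spp1* at 14 DAS, against 1.25% of genes. All 3 had lower means there, as did 64.6% of all genes tested. These were Sevir.3G193600, the most abundant, at 274 ± 56.8 against 194 ± 15.6 FPKM, Sevir.5G347300 at 3.59 ± 0.22 against 1.16 ± 0.63, and Sevir.3G130600 at 8.27 ± 0.59 against 5.91 ± 0.78 (SD, n = 4). From 10 to 14 DAS the mean of Sevir.3G193600 changed by 0.89 in log2(FPKM + 1) in A10.1 and by 0.20 in *spp1*. The other annotated abscisic acid receptor, Sevir.3G077900 (PYL8-like), averaged 43.2 ± 8.83 and 26.4 ± 8.16 FPKM at 14 DAS and was not called. Of 14 other ethylene-responsive factors, 12 had lower means in *spp1* at 14 DAS, as did 64.6% of all genes tested. Of 13 tested, 1 was called lower, against 1.25%. The gene called was Sevir.2G437800, described above as lying inside the limit of the selection. Sevir.5G352900, the gene of this class nearest to Sevir.5G352700 in number, held 7.40 to 9.69 FPKM in A10.1 and 1.91 to 7.43 in *spp1*. The inositol transporter, I9 and DUF4228 groups held 2, 4 and 3 other genes, of which 1, 2 and 1 had lower means in *spp1*. The 2 others of the first group are described as polyol transporters. Of these, Sevir.8G215100 was called higher in *spp1*, against 0.68% of genes, at 52.1 FPKM against 32.2 in A10.1 (log2 difference 0.67). In the second Sevir.9G548000 was called lower, at 1.07 against 2.38 FPKM, and in the third 0 were called.

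The 10 genes lie on chromosomes 2, 4, 5, 6, 7 and 9 by their identifiers. Of the 100 genes within 5 places of a member in the numbered gene order, 55 averaged 1 FPKM or more at 14 DAS, with a median log2 difference of -0.10. Of these, 2 were called lower in *spp1* and 0 higher, with 1.25% of all genes called lower. Sevir.2G295700, next to the terminal ear1 homolog, is annotated in rice as an LRP1 protein. At 14 DAS it averaged 9.44 ± 0.73 FPKM in A10.1 against 4.98 ± 1.10 in the mutant (SD, n = 4). Sevir.2G295400, 2 places from that homolog, shares its rice description and was not called (log2 difference -0.57 at 14 DAS). It was not counted among the relatives above. Sevir.6G172300, 2 places from the initiation factor gene, is annotated as a trehalose-6-phosphate synthase and held 8.81 to 12.5 FPKM in A10.1 and 0.73 to 2.86 in *spp1*. Whether reads of neighbours overlap those of the 10 genes cannot be judged from FPKM values.

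For the wider auxin pathway, the study listed 85 genes of synthesis, transport and signalling, with which the 10 share no gene, and of which 68 averaged 1 FPKM or more over all libraries. Limma's interaction test called 0 of these 68, against 0.0615% of all genes. At an unadjusted p under 0.05 there were 2, against 872 of all 17896 genes. Their median contrast was -0.08, as over all genes (-0.08). At 12 DAS 1 of 67, Sevir.5G374100, was called lower in *spp1* and 1, Sevir.3G396200 of the AUX/IAA repressors, higher, against 0.198% and 0.0903% of genes. At 14 DAS 1 of 67 was called lower and 0 higher, against 1.25% and 0.68%. At an unadjusted p under 0.05 there were 12 lower and 8 higher, against 4039 of all 17645 genes in either direction. The gene called was again Sevir.5G374100, the homolog of maize *barren stalk1*, which acts in the start of lateral meristems. In A10.1 16 of 67 were called higher from 10 to 12 DAS and 7 lower, against 6.84% and 6.37% of genes. From 12 to 14 DAS 6 of 67 were called higher there and 1 lower, against 2.44% and 2.74%. The widest contrasts of the list were 0.96 for Sevir.9G054000, an AUX/IAA repressor, and -0.58 and -0.55 for the auxin response factors Sevir.7G179200 and Sevir.4G252900.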

How the data were processed

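RNA of pooled inflorescences was sequenced in paired ends. The authors trimmed reads with Trimmomatic, checked them with FastQC, mapped them to the *S. viridis* genome (version 1) with TopHat2 on a Bowtie2 index and took expression from cuffdiff. Tool versions are not given in the sources used here. The deposited FPKM values, to 2 decimals, were used as given, and reads mapped and the percent mapped come from a deposited table by the authors. Deposited tables of fold changes and q-values for genes called by the authors were used only for their gene descriptions. There were no counts, so limma 3.58.1 in R 4.3.3 was run with a trended prior on log2(FPKM + 1), for genes averaging 1 FPKM or more over the libraries of a fit, with Benjamini-Hochberg adjustment at 0.05 and no block. This understates changes of low genes. The interaction was an F test in the 6 groups, genotype was fitted within a stage and stage within a genotype. The limma fits were tested on simulated data.

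The members and lists were chosen with earlier results of these data known. Named genes are the 10 members, the 5 next in rank in the same direction, the 10 with the highest r with the members' mean z-score, relatives by WikiGene, InterPro or rice text, called neighbours within 5 places, SPP1, and the 3 auxin genes of widest contrast. Relatives, neighbours and auxin genes beyond these were counted only, except *ba1*, Sevir.2G295400, Sevir.5G352900, Sevir.8G215100, Sevir.9G548000, Sevir.3G396200 and the GH3 and PYL genes named after their values were seen. Alternatives were a pseudocount of 0.1, no filter, a mean of at least 5 FPKM, median ratio scaling, 1 fit of all 22 libraries, a replicate block and leaving out each library. No reference sequence matched the gene identifiers, so none is shown.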

Additional observations from a re-analysis of the deposited data

Results flagged for a closer look

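The effect of genotype differed between stages for the 10 genes by the interaction test that also chose them, so the flag adds nothing to the selection. The contrast, the *spp1* minus A10.1 difference at 14 DAS less that at 10 DAS in log2(FPKM + 1), was -1.43 for Sevir.2G037400, -0.88 for Sevir.5G352700, -1.30 for Sevir.9G441100, -0.99 for Sevir.6G172100 and -0.69 for Sevir.2G295600. It was -1.21 for Sevir.4G285500, -0.99 for Sevir.7G125200, -1.51 for Sevir.5G017800, -1.27 for Sevir.9G507200 and -1.64 for Sevir.5G333300. A test for a library far from the others of its group, run on the 40 gene and group combinations with 4 libraries, found 0.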

How the results depend on the processing

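The contrasts of the 10 genes stayed negative in all 250 values over 25 alternatives, and the 14 DAS differences in all 110 over 11. Of these, 6 and 7 moved beyond their spread, all with a pseudocount of 0.1 except the 14 DAS difference of Sevir.5G352700 (-0.58 after median ratio scaling). The number of the 10 called in the interaction test was less stable than their direction. It fell from 10 to 3 with a pseudocount of 0.1, 3 of 4 tested at a mean of at least 5 FPKM, and 2 after median ratio scaling, and ranged from 2 to 9 on leaving out 1 library. It was 2 to 6 without A10.1 replicates 2, 3 or 4 at 10 DAS, 1 or 4 at 12 DAS, or 1, 2 or 4 at 14 DAS, or without *spp1* replicates 1 or 2 at 10 DAS, 4 at 12 DAS, or 1 or 3 at 14 DAS. At 12 DAS the 2 called lower became 0 with a pseudocount of 0.1 or with no filter, 1 at a mean of at least 5 FPKM or after scaling, and 0 to 1 without 1 library. At 14 DAS 10 became 4 of 4 tested at a mean of at least 5 FPKM, and was 8 to 10 without 1 library, while the number called over all genes ran from 43 (without A10.1 replicate 1) to 333 (without *spp1* replicate 4). In A10.1 the same filter left 1 of 4 called from 10 to 12 DAS and 3 of 4 from 12 to 14 DAS, since 6 of the 10 were not tested. In *spp1* from 12 to 14 DAS the count ranged from 1 to 2 without 1 library.

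Same-numbered replicates were not taken as pairs, because at no stage did every pair correlate over 0.1 in deviations from the group mean (lowest r -0.06, 0.02 and 0.07 at 10, 12 and 14 DAS). With a replicate block the 2 genes called higher in *spp1* from 12 to 14 DAS became 1, and no other count of the 10 moved by over 1.5 times. The median r between the genes was 0.849 in A10.1 alone and 0.751 without replicate 4 of *spp1* at 14 DAS, against 0.75. FPKM values below 1 rest on few reads, which limits the 4 genes that averaged less than this at 10 DAS.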
